A study of Mus musculus with 11 samples.

Results

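The genes described are Bdnf, Sgk1, Dusp1, Dusp6 and Btg2, 5 genes whose transcripts are known to rise with neuronal activity or with stress hormones. They were taken as every probe set on the array annotated to 1 of these symbols and to no other gene, which gave 6 probe sets among the 10855 that carry a single gene symbol (8252 genes). Dusp6 has 2 probe sets and the others have 1 each. Of the 6 probe sets, 5 were bright enough to be tested, 1 for each gene, among 7453 tested in all.

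Whole brains of 11 untreated C57BL/6J mice were profiled, 1 array per mouse. Per the labels, the 5 null mice are null mutants for the β4 subunit of nicotinic receptors, ion channels opened by acetylcholine, and no tissue-specific driver of the loss is named. They comprised 2 males aged 9 weeks (null 1 and null 2) and 3 females aged 7, 8 and 8 weeks (null 3, null 4 and null 5). The 6 wild-type littermates comprised 4 males aged 9, 8, 6 and 6 weeks (wild-type 1, 2, 4 and 6) and 2 females aged 7 and 6 weeks (wild-type 3 and 5). All null mice and wild-type 1, 2 and 3 carry animal numbers beginning with B4, and wild-type 4, 5 and 6 carry numbers beginning with LT. The arrays are single brains, and nothing in the labels gives the litter of any mouse. The study set null brains against those of littermate controls.

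Firing of a neuron lets calcium in and switches on kinases that phosphorylate transcription factors such as CREB and the serum response factor, and a set of genes is then transcribed within minutes to hours. Some of these genes carry the signal on, as Bdnf does through its receptor TrkB, and others limit it, as the dual-specificity phosphatases do by removing phosphate from MAP kinases. Sgk1 answers mainly to glucocorticoid hormones, and Btg2 slows cell division and recruits the machinery that shortens mRNA tails.

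Levels are given as MAS5 signal, a linear intensity that the authors' software had scaled to a common trimmed mean on every array. Differences are on the log2 scale, null minus wild-type, with their standard error (SE). They come from limma fitted to all 7453 probe sets with sex as a covariate, with p-values adjusted by Benjamini-Hochberg over all of them and a threshold of 0.05. In whole tissue, fewer cells of a type and less RNA per cell cannot be told apart. Probe sets differ in binding strength, so signals of different genes were not set against each other.

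The male null arrays stood apart from the other 9. Their 3′ to 5′ signal ratios of the Gapdh control transcript were 0.859 and 0.798, against 2.19 to 5.92 on the other arrays, and those of the Actb control were 1.53 and 1.33, against 2.89 to 5.45. Over all brains the Gapdh ratio was 2.04 ± 1.21 (SD, n = 5) in null brains, against 4.24 ± 0.862 (SD, n = 6) in wild-type brains (two-sided exact permutation p = 0.00866). On the first principal component, with 39.7% of the variance, the male null arrays lay at 47.2 and 49.2 and the others between -16.3 and -2.03. The summed signal of 10 neuronal markers was 15861 and 16348 in male null, 14316 to 15363 in female null and 11980 to 14806 in wild-type brains. The sum of 6 erythroid markers was 2478 and 2549 in male null, 4310 to 6567 in female null and 2741 to 6924 in wild-type brains, and that of 5 choroid plexus markers was 689 and 965, 1212 to 1451 and 1022 to 1816 in the same order. The sum of 10 liver and muscle genes that brain should hardly express was 184 to 264 in null and 200 to 273 in wild-type brains. The sum of 11 microglial markers was 2241 and 2610 in male null, 1714 to 1977 in female null and 1841 to 2223 in wild-type brains. Single markers did not all follow their sums: in males Alas2 (erythroid) and Folr1 (choroid plexus) had log2 differences of 0.64 and 1.21, with the sums of their lists lower. Neither difference passed (limma adjusted p = 0.290 and 0.124). Of 8 tested microglial markers, 4 rose and 2 fell past the threshold in males, where 32.6% of all probe sets passed. Those that fell were Tyrobp (-1.02) and Ctss (-0.46, limma adjusted p = 0.00216 and 0.0407). Of 9 tested neuronal markers, 5 rose and none fell, and Snap25 had the lowest difference (-0.31, limma adjusted p = 0.110). The part of the marker differences in the values of the 5 genes was not tested. That of the array differences cannot be told apart from the genotype of the males. The genotype differences of the 5 genes are given with and without the male null brains, and with the Gapdh ratio as a covariate.

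With both sexes together, 0 of the 5 genes passed the threshold, as did 0.0268% of all probe sets tested (2 of 7453). At an unadjusted limma p under 0.05, 2 of the 5 passed, Bdnf lower and Dusp6 higher, against 23.1% of all probe sets. No gene separated the 5 null brains from the 6 wild-type brains without overlap, a pattern that 1.09% of the probe sets showed. The male null brains, by contrast, lay outside the range of all other brains for 4 of the 5 genes, lower for Bdnf and Sgk1 and higher for Dusp6 and Btg2. That pattern was common on these arrays, at 37.2% of all probe sets.

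**Figure D1:**
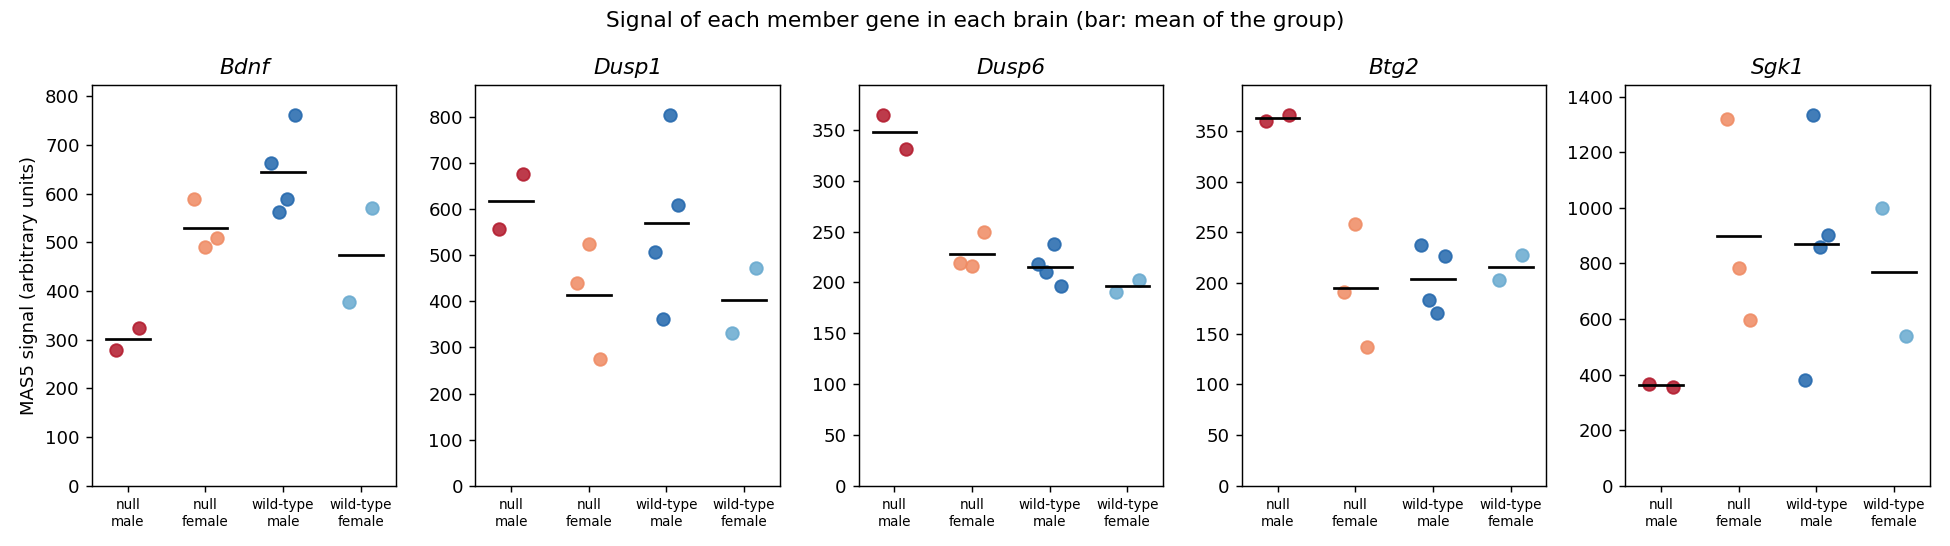
Signal of the tested probe set of each gene in each brain (vertical axis, MAS5 signal in arbitrary units, starting at 0), with null males, null females, wild-type males and wild-type females from left to right. Each point is 1 brain and each bar is the mean of its group. Male null brains lie below every other brain for Bdnf (279.2 and 323.8) and Sgk1 (367.1 and 355.3) and above every other brain for Dusp6 (365.1 and 330.9) and Btg2 (360.0 and 366.1).

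The promoters of the 5 genes were searched for the letters of the cyclic AMP response element (TGACGTCA), to which CREB binds, for its core (TGACG) and for the CArG box, the binding site of the serum response factor. The window was the 250 bases before each RefSeq start site on GRCm38.p6, both strands, and a full element also counts as core matches. The full element was found in Dusp1 and Btg2, which have 1 listed promoter each, and in 1.55% of all 32851 promoters. Its centre lay 139 bases before the Dusp1 start and 162 bases before the Btg2 start. The core was found in 1 of 7 Bdnf and 1 of 6 Sgk1 promoters, against 17.8% of all promoters, and none of the 5 genes held the CArG box, which 1.47% of promoters did. The Dusp6 promoter held none of the 3.

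The sequences of 4 promoters follow, each 5′ to 3′ toward the start site, with the matches in capitals. They are shown because Dusp1 and Btg2 hold the full element, Dusp6 holds no match, and the third Bdnf promoter holds the only core match of its gene. They are the minus strand of chr17:26508473-26508722 (Dusp1) and chr1:134079156-134079405 (Btg2) and the plus strand of chr10:99262981-99263230 (Dusp6) and chr2:109692186-109692435 (Bdnf), from RefSeq.
Dusp1: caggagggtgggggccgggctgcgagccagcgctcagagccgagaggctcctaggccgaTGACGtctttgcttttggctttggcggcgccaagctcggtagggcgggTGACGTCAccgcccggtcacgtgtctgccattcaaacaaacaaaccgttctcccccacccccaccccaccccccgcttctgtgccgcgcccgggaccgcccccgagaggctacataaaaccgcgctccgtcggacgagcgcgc
Btg2: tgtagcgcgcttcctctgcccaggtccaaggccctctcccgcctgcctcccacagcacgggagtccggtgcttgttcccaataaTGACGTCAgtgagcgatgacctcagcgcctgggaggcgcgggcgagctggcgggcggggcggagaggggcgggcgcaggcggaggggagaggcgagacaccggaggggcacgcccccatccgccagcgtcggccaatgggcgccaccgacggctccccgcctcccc
Dusp6: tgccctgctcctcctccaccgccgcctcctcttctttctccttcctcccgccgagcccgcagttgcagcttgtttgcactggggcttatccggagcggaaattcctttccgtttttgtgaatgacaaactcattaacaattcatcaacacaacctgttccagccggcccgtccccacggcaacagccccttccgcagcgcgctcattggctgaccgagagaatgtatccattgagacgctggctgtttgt
Bdnf: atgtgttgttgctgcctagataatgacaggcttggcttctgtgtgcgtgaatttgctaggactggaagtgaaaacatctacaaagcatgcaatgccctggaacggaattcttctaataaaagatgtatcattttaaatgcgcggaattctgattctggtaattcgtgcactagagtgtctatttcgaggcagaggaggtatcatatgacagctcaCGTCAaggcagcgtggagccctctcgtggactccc
A match is a run of letters and does not show binding. The single Bdnf probe set does not tell which of the 7 promoters a transcript came from.

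Bdnf (probe set 102727_at) encodes brain-derived neurotrophic factor, a secreted protein that promotes survival of neurons and strengthening of synapses. The RefSeq gene spans chr2:109674700-109727043 of assembly GRCm38.p6. Its signal in male null brains was 279.2 and 323.8, and in female null brains 589.5, 490.0 and 508.8, against a lowest value of 378.4, a median of 579.7 and a highest value of 762.2 in the 6 wild-type brains. Both male null brains were thus below every wild-type brain, and all 3 female null brains were within the wild-type range.

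The means were 438.3 ± 131.3 (SD, n = 5) in null brains, against 587.3 ± 127.2 (SD, n = 6) in wild-type brains. The log2 difference for Bdnf was -0.49 (SE 0.22), with an adjusted p of 0.209. Within males it was -1.09 (SE 0.18, limma adjusted p = 0.000716), so Bdnf fell 2.13-fold in male null brains. Of all probe sets, 32.6% passed the same test in males, 1330 higher and 1103 lower. Within females the Bdnf difference was 0.18, with a 95% interval of -0.23 to 0.60 (limma adjusted p = 0.995). In females 0 of the 5 genes and 0% of all probe sets passed with limma. At an unadjusted p, 0 of the 5 genes were under 0.05 in females, against 4.13% of all probe sets (308).

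The Bdnf differences in females and in males differed from each other by 1.27 (SE 0.26, limma adjusted p = 0.0075), a test that 15.9% of probe sets passed. Without the male null brains the difference over the remaining 9 brains was 0.18 (limma adjusted p = 0.999). The only male wild-type brain as old as the male null brains, wild-type 1 at 9 weeks, had a Bdnf signal of 662.4. Among B4-numbered animals the difference in males was -1.02 (SE 0.16, limma adjusted p = 0.000984), with wild-type 1 and wild-type 2 as the male controls.

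Sgk1 (97890_at, chr10:21882184-21999903) encodes serum- and glucocorticoid-regulated kinase 1, a relative of AKT that acts on ion channels and transporters. The male null brains had Sgk1 signals of 367.1 and 355.3 and the female null brains of 1320, 783.5 and 595.3, against 381.0, 1335, 999.4, 858.9, 537.8 and 902.0 in wild-type 1 to 6. The lowest 3 values thus belonged to the 3 males aged 9 weeks, 2 null and 1 wild-type. This order was noticed in the values, and the share of all probe sets that show it was not computed. The other brains spread over a wide range in both genotypes.

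Sgk1 averaged 684.2 ± 397.1 (SD, n = 5) in null brains, against 835.7 ± 339.6 (SD, n = 6) in wild-type brains. The difference was -0.49 (SE 0.35, limma adjusted p = 0.408), and with age as a further covariate it was -0.070 (limma adjusted p = 0.952). The fit with age was made for all 5 genes and is given here for Sgk1, whose order by age had been noticed. Both male null brains were among the oldest, so age and those arrays cannot be fully told apart. Within males the Sgk1 difference was -1.13 (SE 0.42, limma adjusted p = 0.0536), just short of the threshold. Within females it was 0.21 with a 95% interval of -0.74 to 1.17. The call in males depended on single brains: without wild-type 1 it was -1.49 (limma adjusted p = 0.00545), without the female null 3, which enters the estimate of spread, the adjusted p was 0.0475, and without wild-type 2, the brain with the highest Sgk1 signal, it was -0.88 (limma adjusted p = 0.102). The residual spread of Sgk1 was larger than that of 93.2% of the probe sets tested.

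Dusp6 (93285_at, chr10:99263231-99267489) encodes a cytoplasmic phosphatase selective for the kinases ERK1 and ERK2. It is itself transcribed in response to ERK activity and so closes a feedback loop. In male null brains its signal was 365.1 and 330.9, and in female null brains 219.1, 216.5 and 249.2, against a lowest value of 191.0, a median of 206.5 and a highest value of 237.5 in wild-type brains. Of the 5 null brains, 3 were above every wild-type brain (null 1, 2 and 5), and the other two were within the wild-type range.

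Dusp6 averaged 276.2 ± 67.9 (SD, n = 5) in null brains, against 209.3 ± 16.8 (SD, n = 6) in wild-type brains. The difference was 0.46 (SE 0.13, limma adjusted p = 0.0964), the smallest p-value of the 5 genes for genotype. Within males Dusp6 rose 1.62-fold in null brains, a log2 difference of 0.69 (SE 0.14, limma adjusted p = 0.00265). In females the 3 null brains lay above both wild-type brains, at 219.1, 216.5 and 249.2 against 191.0 and 202.3. Their difference of 0.21 did not pass (95% interval -0.11 to 0.54, limma adjusted p = 0.995). In either direction 20.7% of probe sets separated the female groups, 889 higher in null brains, as Dusp6 was, and 653 lower.

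Of the 5 genes, Dusp6 and Dusp1 had estimates of the same sign in males and females, those of Dusp1 being 0.17 and 0.0092. For Dusp6 a difference between the male and female estimates was not shown (-0.48, limma adjusted p = 0.133). Its residual spread was low, larger than that of only 9.31% of the probe sets tested. Of the fits that left out 1 brain, only that without wild-type 5 took Dusp6 past the threshold over both sexes, at 0.53 (limma adjusted p = 0.0335). In that fit 877 of all probe sets passed. The second Dusp6 probe set (161536_r_at) was dim and was not tested, with signals of 0.9 and 1.1 in the male null, 15.8, 1.3 and 4.4 in the female null and 1.7 to 7.1 in wild-type brains. It thus gives no second reading of the gene.

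Dusp1 (104598_at, chr17:26505591-26508472) encodes a nuclear phosphatase, also called MKP-1, that acts on p38, JNK and ERK and is induced by glucocorticoids and by neuronal activity. Male null brains had Dusp1 signals of 556.5 and 676.3, and female null brains of 439.6, 523.7 and 274.5, against a lowest value of 332.0, a median of 489.0 and a highest value of 804.6 in wild-type brains. The genotypes overlapped over nearly the whole range. Dusp1 averaged 494.1 ± 149.3 (SD, n = 5) in null brains, against 514.1 ± 174.0 (SD, n = 6) in wild-type brains.

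The Dusp1 difference was 0.091 with a 95% interval of -0.38 to 0.56 (limma adjusted p = 0.827), and its sign changed with the scaling (-0.090 after centring each array on its median). It was 0.17 in males and 0.0092 in females, and neither passed (limma adjusted p = 0.709 and 0.999). Dusp1 was therefore the gene of the 5 that did not separate the male null brains from the rest. The 3 LT-numbered wild-type brains averaged 628.1 ± 167.3 and the 3 B4-numbered wild-type brains 400.1 ± 93.1 (SD, n = 3 each). Among B4-numbered animals the Dusp1 difference was 0.41 (SE 0.22, limma adjusted p = 0.267).

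Btg2 (101583_at, chr1:134074865-134079155) encodes an antiproliferative protein of the BTG/TOB family that binds the CCR4-NOT deadenylase. Its signal in male null brains was 360.0 and 366.1, and in female null brains 190.7, 258.6 and 137.1, against a lowest value of 170.3, a median of 214.9 and a highest value of 237.8 in wild-type brains. The null brains held both the highest and the lowest values of all. Btg2 averaged 262.5 ± 101.4 (SD, n = 5) in null brains, against 208.0 ± 27.1 (SD, n = 6) in wild-type brains.

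The Btg2 difference was 0.36 (SE 0.22, limma adjusted p = 0.336). Within males Btg2 rose 1.79-fold in null brains, by 0.84 (SE 0.22, limma adjusted p = 0.0122), and within females the difference was -0.19 with a 95% interval of -0.70 to 0.33. The male and female differences differed by -1.03 (SE 0.33, limma adjusted p = 0.0492). Both calls for Btg2 were close to the threshold: the rise in males had adjusted p-values of 0.0749 without null 1 and 0.0853 without null 2, and of 0.0696 after median centring. The difference between the sexes had an adjusted p of 0.106 after median centring. Without the male null brains the Btg2 difference was -0.19 (limma adjusted p = 0.999).

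**Figure D2:**
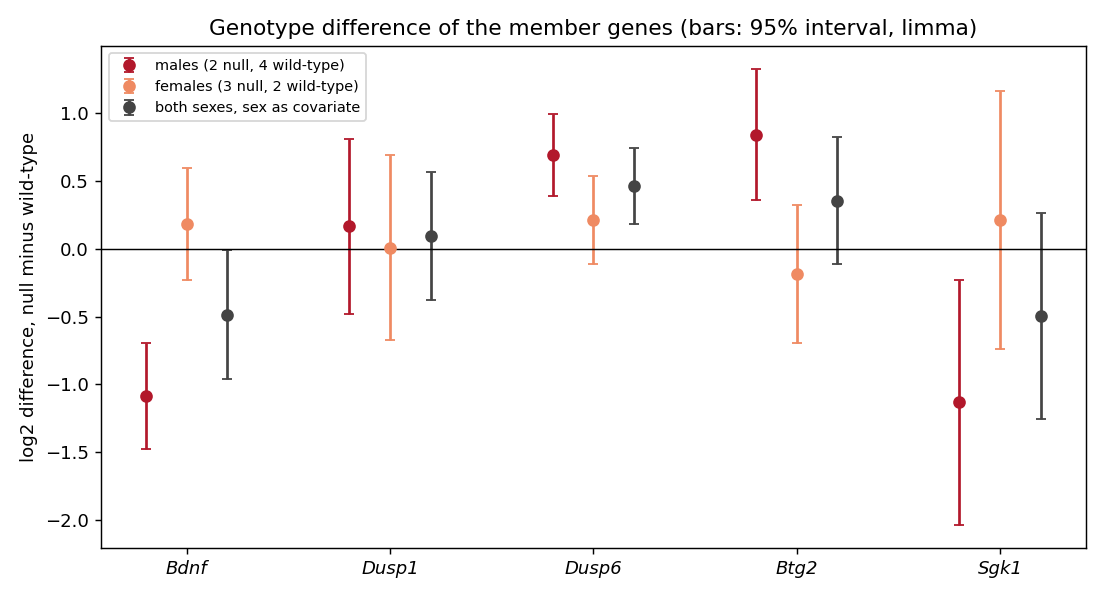
Log2 difference of each gene, null minus wild-type (vertical axis), in males (2 null, 4 wild-type), in females (3 null, 2 wild-type) and over both sexes with sex as a covariate. Points are limma estimates and bars their 95% intervals. In males the intervals of Bdnf, Dusp6, Btg2 and Sgk1 exclude 0, whereas in females all 5 include it. The intervals are not adjusted, and in males 3189 of all 7453 probe sets had an unadjusted limma p under 0.05. Sgk1 did not pass in males after adjustment (limma adjusted p = 0.0536).

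Centring each array on its median lowered every genotype difference, by 0.18 over both sexes and by 0.28 in males, because the male null arrays had the highest median signals (58.3 and 56.3, against 43.6 to 49.75). Under that scaling the male differences were -1.37 for Bdnf and -1.42 for Sgk1 (limma adjusted p = 0.000131 and 0.0208), 0.41 for Dusp6 (0.0422), 0.56 for Btg2 (0.0696) and -0.12 for Dusp1 (0.776). Bdnf and Dusp6 thus kept their direction and their call in males. Quantile normalization gave -1.11 for Bdnf, 0.66 for Dusp6 and 0.82 for Btg2 in males, all past the threshold. Such calls were common: in males 2771 of all 7453 probe sets passed after median centring and 2545 after quantile normalization. Over the 9 brains left without the male null brains, Dusp6, Sgk1 and Dusp1 had differences of 0.21, 0.21 and 0.0092, none of which passed (limma adjusted p = 0.999 for each).

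The 5 genes are set against the Gapdh control ratio of their arrays in a further plot, since that ratio differed between the genotypes. With the ratio as a covariate the differences over both sexes were 0.25 for Bdnf, 0.21 for Sgk1, -0.52 for Btg2, -0.033 for Dusp1 and 0.26 for Dusp6, and none passed (limma adjusted p between 0.994 and 0.999). The signs of Bdnf, Sgk1, Btg2 and Dusp1 were thus opposite to those without the covariate, and that of Dusp6 was the same. The ratio and the genotype of the males cannot be told apart, because no male wild-type array had a ratio under 3.57.

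**Figure D3:**
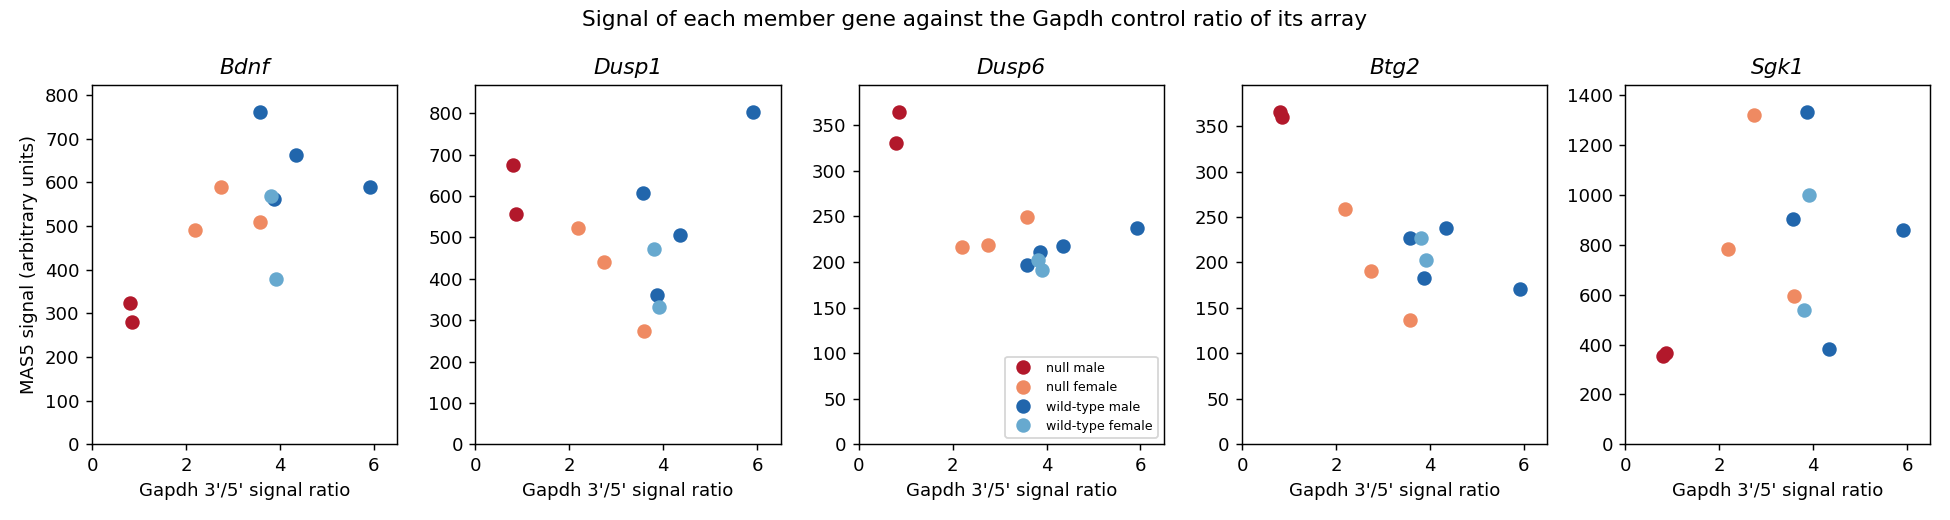
Signal of each gene (vertical axis, MAS5 signal in arbitrary units) against the ratio of 3′ to 5′ Gapdh control signal on the same array (horizontal axis, no unit), 1 point per brain. The male null arrays, at ratios of 0.859 and 0.798, lie alone at the left of each panel, with Bdnf and Sgk1 at the bottom and Dusp6 and Btg2 at the top of their range.

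The comparison of females with males, adjusted for genotype, gave 0 calls among the 5 genes and 0% of all probe sets with limma, and 2 of the 5 genes and 12.4% of all probe sets (926) had an unadjusted p under 0.05. These 2 were Dusp6, at -0.36 (SE 0.13, limma adjusted p = 0.329), and Dusp1, at -0.54 (SE 0.22, limma adjusted p = 0.358). Dusp1 averaged 408.3 ± 102.5 (SD, n = 5) in females and 585.6 ± 150.9 (SD, n = 6) in males, and the ranges overlapped. The Bdnf, Btg2 and Sgk1 differences between the sexes were 0.14, -0.40 and 0.53, and each changed sign without the male null brains, to -0.46, 0.087 and -0.11. Those of Dusp6 and Dusp1 were then -0.13 and -0.47, with unadjusted limma p-values of 0.406 and 0.158.

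The genes also varied within wild-type brains, where genotype plays no part. The ratio of the highest to the lowest wild-type signal was 3.50 for Sgk1, 2.42 for Dusp1, 2.01 for Bdnf, 1.40 for Btg2 and 1.24 for Dusp6. The wild-type coefficients of variation kept that order, from 40.6% for Sgk1 and 33.8% for Dusp1 through 21.7% for Bdnf to 13.05% for Btg2 and 8.03% for Dusp6. In null brains those coefficients were 58.03% for Sgk1, 30.2% for Dusp1, 30.0% for Bdnf, 38.6% for Btg2 and 24.6% for Dusp6. They span the gap between the male and female null brains: within the 3 female null brains alone they were 41.8% for Sgk1, 30.7% for Dusp1, 9.98% for Bdnf, 31.2% for Btg2 and 7.96% for Dusp6. The order of the genes was not tested.

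Whether the 5 genes varied together from brain to brain was examined over the 9 brains other than the male null brains, which form a cluster of their own. None of the 10 pairs passed after adjustment. Dusp6 and Btg2 had r = -0.65 and rho = -0.48 (exact permutation p = 0.0559 and 0.194, adjusted 0.55 and 0.781, n = 9), and r was -0.50 without the 2 brains farthest from the median of Dusp6. Bdnf and Dusp1 had r = 0.56 and rho = 0.63 (exact permutation p = 0.110 and 0.076, adjusted 0.55 and 0.76), and r was 0.37 without 2 brains. Within the 6 wild-type brains alone these pairs had r = -0.51 and 0.64. The other 8 pairs had r between -0.21 and 0.41 over the 9 brains. Some of these moved with few brains: Btg2 and Sgk1, at -0.21, had -0.71 without 2 brains and -0.69 in wild-type brains, and Dusp1 and Btg2, at 0.41, had 0.71 without 2 brains and -0.14 in wild-type brains.

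The 3 genes most like each of the 5 were taken by Pearson's r of log2 signal over the same 9 brains, among 6762 tested probe sets of 5694 genes. Each was the highest among many candidates over few brains and is given as a description. All 11 brains include these 9, so r over 11 is no separate test. Of 5 alternatives with other brains or scalings, some kept fewer than 2 of the 3 genes. These were 1 for Bdnf, 2 each for Dusp1 and Sgk1, and 3 each for Dusp6 and Btg2. For Bdnf they were Cand1, Perp and Atp5d (r = 0.97, 0.94 and 0.93, and -0.30, -0.23 and 0.90 over all 11 brains). For Dusp1 they were Cadm1, Nsmf and Kcnj9 (0.94, 0.93 and 0.92, and 0.93, 0.90 and 0.81 over 11 brains). For Dusp6 they were Tbce, Cdh1 and Ak4 (0.97, 0.97 and 0.92, and -0.51, 0.72 and 0.40 over 11 brains). Those of Btg2 were Lmna, Kif3a and Laptm4a (0.91, 0.90 and 0.88, and 0.92, 0.91 and 0.54 over 11 brains). Those of Sgk1 were Dhx40, Slc38a2 and Dnajb1 (0.95, 0.95 and 0.94, and 0.13, 0.46 and 0.58 over 11 brains).

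Genes that work with the 5 were read from lists, leaving out the 5 themselves. Over both sexes 0 members of any of these 8 lists passed with limma, in females 0 and by sex 0. At an unadjusted p under 0.05, 0 to 6 genes of a list of 5 to 29 tested genes passed over both sexes, 0 or 1 in females and 1 to 5 by sex, where the shares of all probe sets were 23.1%, 4.13% and 12.4%. No list result was computed without the male null brains other than those in females. In males, where 32.6% of all probe sets passed and the median difference of all was 0.053, several did.

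Of the other MAP kinase phosphatases, 5 were tested and 2 rose in male null brains, Dusp16 by 0.97 and Dusp19 by 0.54 (limma adjusted p = 0.0151 and 0.0461). Dusp8, a phosphatase of JNK and p38, had the lowest difference, -1.06, which did not pass (limma adjusted p = 0.0805). The median of the 5 was 0.13 in males and -0.031 over both sexes. In the ERK, JNK and p38 cascades, on which the phosphatases act, 6 of 19 rose and 3 fell in male null brains. The kinase genes at the ends were Mapk9, which encodes JNK2, at 2.22 and Mapk7, which encodes ERK5, at -2.52, and Nras, an upstream GTPase, fell by 1.36. The others that rose were Map2k4, Ksr1, Map2k5, Map2k3 and Grb2 (0.54 to 1.79), and Map2k2 fell by 0.61. The median of the cascade list was 0.037.

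The list of neurotrophins, their receptors and processing held 7 tested genes other than Bdnf, none of them another neurotrophin. Ntrk2, which encodes TrkB, was too dim to be tested. None of the 7 passed with limma in males, where 2 had an unadjusted p under 0.05 and their median was 0.13. Ntrk3, the receptor of neurotrophin 3, had the highest difference at 1.12 (limma adjusted p = 0.0714) and Gdnf, a glial-derived factor, the lowest at -0.35. Among 29 immediate-early and activity-induced genes, 4 rose and 2 fell in male null brains, where 32.6% of all probe sets passed, with a median of 0.31. Ier3 (2.78), Zfp36 (1.92), Nr4a2 (1.78) and Gadd45g (1.40) rose, and Klf4 (-0.87) and Jund (-0.76) fell. Fos and Egr1, transcription factors induced by firing, had differences in males of 0.31 and -0.12 that did not pass (limma adjusted p = 0.51 and 0.685).

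Among 22 glucocorticoid-responsive genes other than Sgk1 and Dusp1, 3 rose and 5 fell in male null brains, with a median of -0.11. Of all probe sets, 32.6% passed in males. Mertk, Glul and Gpd1 rose (1.27, 0.90 and 0.85). Hsd11b1, which regenerates active glucocorticoid, fell by 1.45, the metallothioneins Mt2 and Mt1 by 0.99 and 0.83, Ddit4 by 0.74 and Errfi1 by 0.66. Fkbp5 and Tsc22d3, both induced through the glucocorticoid receptor, had differences of 0.44 and 0.60 that did not pass (limma adjusted p = 0.183 and 0.187).

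In males 32.6% of all probe sets passed, the share to set beside each count here. Of 9 other BTG/TOB and CCR4-NOT genes, 3 rose in male null brains and none fell, with a median of 0.33. They were Cnot7 and Cnot3, subunits of the deadenylase, and Prmt1, a methyltransferase that binds Btg2 (1.07, 0.91 and 1.04). Of 14 kinases and targets of the SGK and AKT pathway, 2 rose (Pik3r1 by 0.99, Ndrg2 by 0.54) and 4 fell, among them Pdpk1, the kinase that activates Sgk1, by 1.28. The other three that fell were Pik3ca, Gsk3a and Nedd4 (-1.01, -0.62 and -0.56), the last a relative of the ubiquitin ligase that Sgk1 phosphorylates. Of 18 genes that carry calcium and cyclic AMP signals to transcription, 5 rose in male null brains (Mef2c by 1.75, Elk1 by 1.38, Atf4 by 0.62, Mef2a by 0.56 and Prkar1b by 0.51) and Mef2d fell by 0.69. The median of that list was 0.042 and that of the SGK and AKT list 0.15.

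**Figure D4:**
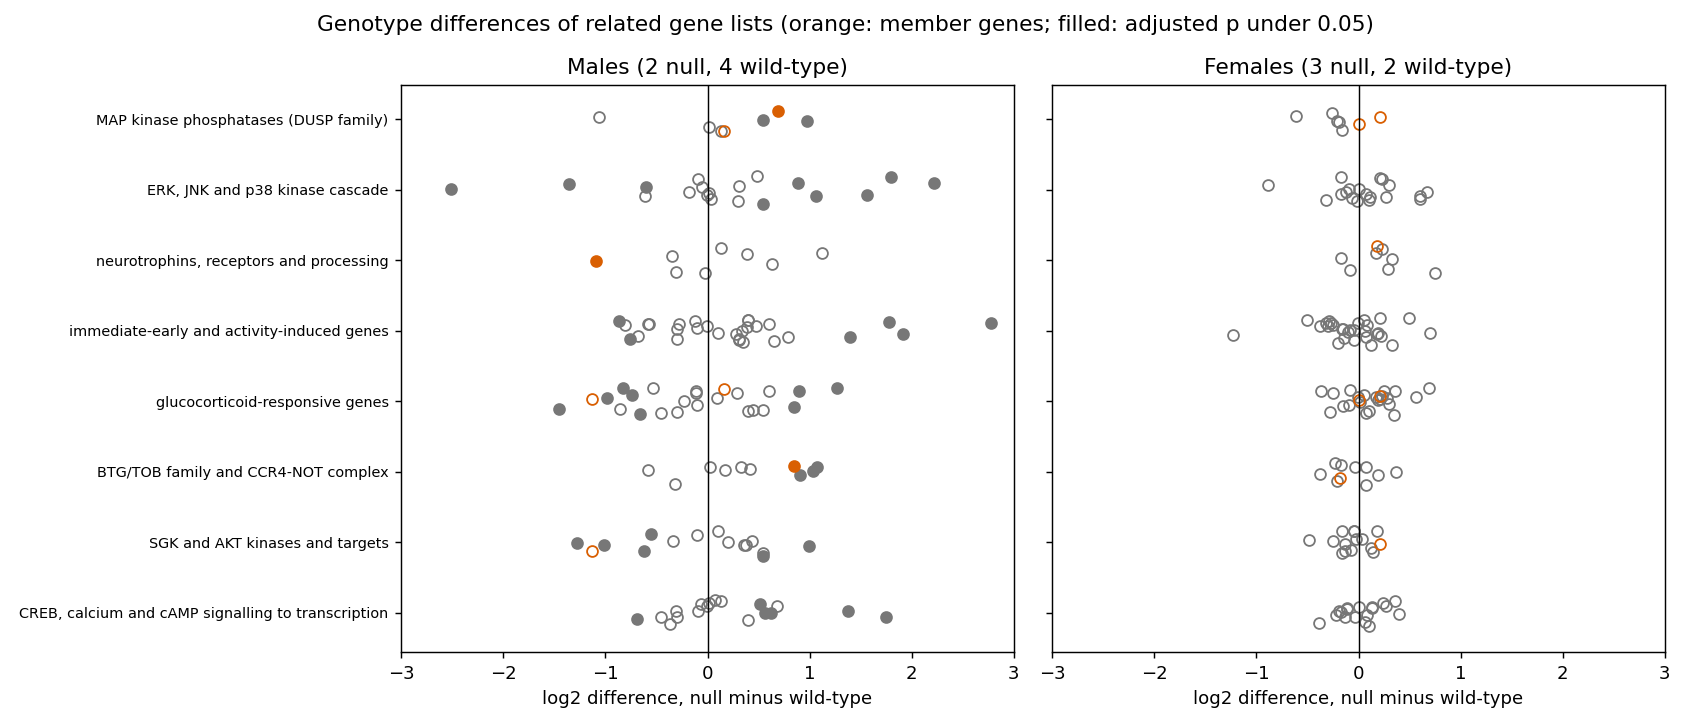
Log2 genotype difference, null minus wild-type (horizontal axis), of every tested gene of 8 related lists (rows), in males (left panel) and females (right panel). Orange points are the 5 genes described, grey points the other genes of a list, and filled points passed the threshold (limma adjusted p under 0.05). Filled points occur in males, with Mapk7 at -2.52 and Ier3 at 2.78 as the extremes, and none in females.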

How the data were processed

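Messenger RNA was measured in 11 whole mouse brains (5 null, 6 wild-type), grouped by the labels, 1 array each. Per the labels' protocols, TRI Reagent and an RNeasy column gave the RNA, which an Enzo kit labelled with biotin. The deposited values are 1 linear intensity per probe set and array, made by the authors with MAS5 per the submitters' processing notes. The version and its settings are not given in the sources used here, nor were detection calls used. The deposited intensities had a trimmed mean of 150.1 on every array and were not scaled further.

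Of 12488 probe sets, 66 controls were left out. Gene names came from GEO's platform annotation, which gave 1 gene for 10855 probe sets, several for 396 and none for 1237. Intensities under the 10th percentile of the table (3.1) were raised to it, log2 was taken, and the 7453 probe sets with a mean log2 of at least 4.69 (the 40th percentile, an intensity of 25.8) were tested. limma 3.58.1 in R 4.3.3 (lmFit, eBayes with a variance trend, Benjamini-Hochberg adjustment, threshold 0.05) fitted genotype with sex, and genotype, sex and their interaction, which also gave the differences within each sex. Array measures and pairs of genes were tested by two-sided exact permutation (scipy 1.17.1). The scripts were tested on simulated data.

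The named genes are the 5 described with all their probe sets, the 3 most like each by Pearson's r, and the list members past the threshold or at either end of a list, each through its brightest probe set. Some further list genes (Fos, Egr1, Fkbp5, Tsc22d3 and the untested Ntrk2) were named after their values were seen. The 5 genes and the lists were chosen with earlier results of these data known. The alternatives were other scalings, floors, filters, covariates and array weights, B4-numbered animals only, and leaving out each brain or the male null brains. The precision is limited by the number of arrays. Replicate numbers follow the order of deposit and pair no samples, and nothing says whether mice shared a litter.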

Additional observations from a re-analysis of the deposited data

Results flagged for a closer look

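The genotype differences of Bdnf and Btg2 in females and males passed a test of the difference between them. Bdnf kept that call in all 16 alternatives, and Btg2 lost it in 13 of 16 (limma adjusted p up to 0.162). None of the 16 had the Gapdh ratio or age as a covariate, and all rest on male null arrays. For Bdnf the difference in females minus that in males was 1.27 (limma adjusted p = 0.0075), made of 0.18 in females and -1.09 in males. For Btg2 it was -1.03 (limma adjusted p = 0.0492), made of -0.19 in females and 0.84 in males. Of all probe sets tested, 15.9% passed this test, and the male null arrays, on which both male values rest, stood apart in their Gapdh ratio (0.859 and 0.798, against 2.19 to 5.92). The part of that ratio in these differences was not tested. In none of the 15 groups of 4 to 10 brains looked at did a brain lie far from the others by Dixon's criterion. That criterion looks at single brains, and brains that lie together, as the male null brains did, can hide each other.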

How the results depend on the processing

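The differences rest on few arrays, and those in males rest on the 2 male null arrays. The alternatives within each sex and the combinations with another scaling or no covariate without the male null brains were chosen after seeing the data. The causes of the changes were not tested. No paired analysis was possible because the replicate numbers follow the order of deposit.

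The count of probe sets past the threshold for genotype, 2, became 1 after quantile normalization, median centring, a filter at the 20th or 60th percentile or no covariate, 0 without a filter, with age or with the Gapdh ratio as a covariate, 26 in B4-numbered animals and 1741 with array weights. Leaving out 1 brain gave 1 to 877 (877, 195 and 9 when wild-type 5, wild-type 3 and null 5 were left out). Without the male null brains it was 0, also after quantile normalization, and 1 after median centring or without a covariate. In males it was 2433, and 1217 to 2486 without 1 brain (1339 without null 1, 1217 without null 2). In females it was 0, but 1 with median centring, array weights or B4-numbered animals, and 0 to 4 without 1 brain (4 without wild-type 3, 1 without wild-type 5). By sex it was 0, but 2 with log2(signal + 16), 3 without a filter, 1232 with array weights and 0 to 30 without 1 brain (30 without wild-type 5). For the interaction it was 1187, and 461 to 1406 without 1 brain (499, 650 and 461 when wild-type 5, null 1 and null 2 were left out).

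Over both sexes, array weights took Bdnf (-0.76, limma adjusted p = 0.0205) and Dusp6 (0.57, limma adjusted p = 0.0105) past the threshold, as they did 1741 of all probe sets. Dusp6 lay at 0.38 to 0.53 without 1 brain. The Gapdh ratio as a covariate turned Bdnf to 0.25, Sgk1 to 0.21, Btg2 to -0.52 and Dusp1 to -0.033. Without the male null brains Bdnf was 0.18, Btg2 -0.19 and Sgk1 0.21, with quantile normalization 0.21, -0.16 and 0.22, with median centring 0.12, -0.25 and 0.15 (Dusp1 -0.057), and with no covariate Btg2 was -0.13, Sgk1 0.14 and Dusp1 -0.30. Dusp1 was also -0.090 with median centring, -0.053 without a covariate and -0.012 to 0.21 without 1 brain.

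In males median centring gave -0.12 for Dusp1, 0.56 for Btg2 and -1.42 for Sgk1, and array weights gave -1.16 for Sgk1. Without 1 brain the male values were 0.76 to 0.92 for Btg2, -0.034 to 0.35 for Dusp1 and -1.49 to -0.88 for Sgk1. In females Dusp1 was -0.057 with median centring and Sgk1 -0.23 in B4-numbered animals, and without 1 brain Bdnf was -0.11 to 0.48, Btg2 -0.41 to 0.047, Dusp1 -0.24 to 0.28 and Sgk1 -0.23 to 0.66. Bdnf and Dusp6 kept their direction and call in males in all 17 alternatives. None of these had the Gapdh ratio or age as a covariate, and all rest on 1 or both male null arrays.

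Alternatives of the interaction had neither the Gapdh ratio nor age as a covariate, and all rest on male null arrays. The interaction of Bdnf kept its call in all 16 (0.98 to 1.57). That of Btg2 lost it with quantile normalization (-0.98), median centring (-0.81), no filter (-1.03) and array weights (-0.95), and lay at -1.25 to -0.80 without 1 brain, past the threshold without wild-type 1 or null 4. That of Sgk1 was 0.90 to 1.80 without 1 brain, past the threshold without wild-type 1 (1.70). That of Dusp1 was 0.061 with median centring and -0.41 to 0.11 without 1 brain. By sex, Dusp6 passed with array weights (-0.51), where 1232 of all probe sets passed. Without the male null brains Bdnf was -0.46, Btg2 0.087 and Sgk1 -0.11 by sex, and Bdnf was -0.042 to 0.42 without 1 brain.

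Over all 11 brains the correlations were -0.75 for Bdnf and Dusp6, -0.60 for Bdnf and Btg2, 0.45 for Bdnf and Sgk1, 0.33 for Dusp1 and Dusp6 and 0.61 for Dusp6 and Btg2, all of the opposite sign to those over 9 brains. In the wild-type brains Dusp1 and Dusp6 had 0.66 and Dusp1 and Btg2 -0.14. Dusp1 and Dusp6 had 0.00055 after quantile normalization, and median centring gave -0.25 for Bdnf and Dusp6 and 0.049 for Dusp6 and Sgk1.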

Other observations

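The 3 lowest Sgk1 signals, 367.1 and 355.3 in null 1 and null 2 and 381.0 in wild-type 1, came from the 3 males aged 9 weeks, and the other 8 brains, aged 6 to 8 weeks, had 537.8 to 1335. The younger wild-type males, aged 6 to 8 weeks, had 1335, 858.9 and 902.0, within the range of the females, none of whom was 9 weeks old. At that age and sex the null and wild-type values of Dusp6 (365.1 and 330.9, against 217.8), Btg2 (360.0 and 366.1, against 237.8) and Bdnf (279.2 and 323.8, against 662.4) lay further apart than those of Sgk1, with 1 wild-type brain and no test. This pattern was noticed in the values, and the share of all probe sets that show it was not computed. The male null brains alone lay outside the range of the other 9 for 37.2% of all probe sets tested.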
